A study of Mus musculus with 24 samples.

Results

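The expression of 10 genes of astrocytes and Bergmann glia was examined in the cerebellum of mice with spinocerebellar ataxia type 1 (SCA1), a polyglutamine disorder caused by an expanded CAG repeat in Atxn1. The genes were Gfap, Vim, S100b, Aldh1l1, Aqp4, Slc1a3, Slc1a2, Gdf10, Hopx and Fabp7, chosen by name as markers of these cells, and all 10 of them, among 54232 genes counted, passed the filter on low counts and were tested. Whole cerebella of 24 mice at 6 weeks of age were sequenced, with 1 library per mouse. The groups were 8 WT mice (Atxn1 2Q/2Q), 4 SCA1 mice, with 1 expanded allele beside a 2Q allele, 4 SCA1 S776A mice, in which the expanded allele carries the serine-to-alanine change S776A, 4 S776A double mice, which carry that change on both the expanded and the 2Q allele, and 4 WT S776A homozygous mice, which carry it on both 2Q alleles and have no expansion. Each altered allele is a knock-in at the mouse Atxn1 gene, so glia carry it as well as neurons. The question that these data can address is whether astrocyte genes were already altered in the cerebellum at this early age.

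Bergmann glia are the radial astrocytes of the cerebellar cortex, whose fibers wrap the dendrites and synapses of Purkinje cells and remove glutamate from them. In gliosis, astrocytes of many brain regions increase their intermediate filaments, above all GFAP and vimentin, and the transcription factor STAT3, activated by cytokines of the interleukin-6 family through JAK kinases, is a well-known inducer of Gfap. Astrocytes and Bergmann glia share most of the genes examined here, and in RNA from whole tissue a change in the number of such cells and a change in RNA per cell cannot be told apart.

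Each library held 83096905 to 112353174 fragments, of which 62163600 to 88430180 were counted on genes. The libraries fell into 2 sequencing batches, inferred from summary shares that use no gene: 16 mice in batch 1 and 8 in batch 2, with 9.52% to 12.0% and 5.23% to 6.31% of fragments, respectively, lying outside annotated genes. WT mice were present in both, 4 in each, and the other genotypes in 1 batch each, so every genotype was compared with the 4 WT mice of its own batch. The WT S776A homozygous mice were in batch 2 and the 3 genotypes with the expanded repeat in batch 1. Features of single libraries touch the results. The summed level of 8 choroid plexus markers ranged from 33.9 to 5225 CPM (counts scaled to the size of the library) between mice, and 1 library, WT S776A homozygous replicate 4, had 5.29% of its fragments on mitochondrial genes. Xist, used here to infer female sex, was above 50 CPM in 5 libraries. They were S776A double replicate 1, the only one in batch 1, WT S776A homozygous replicates 3 and 4, and WT replicates 6 and 7.

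The sequences shown here are parts of 2 promoters that hold the short palindrome bound by STAT factors, because STAT3 is a well-known inducer of Gfap. RefSeq promoter windows of 300 bases, from 250 bases before to 50 after a start site on GRCm38.p6, were present for 9 of the 10 genes (10 windows, since Hopx has more than one). The motif TTCNNNGAA, which reads the same on both strands, was found in 2 of these 10 windows, against 8.3% of all 32851 windows. The matches are in capitals, on the strand of the gene.
Gfap, chr11:102897191-102897242, minus strand, match from -2 to 7 relative to the start site: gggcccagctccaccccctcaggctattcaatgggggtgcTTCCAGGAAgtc
Slc1a3, chr15:8710875-8710943, minus strand, match from -96 to -88: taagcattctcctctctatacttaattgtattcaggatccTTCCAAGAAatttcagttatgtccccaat
The start site of this Gfap window lies inside the gene as GENCODE M21 draws it (chromosome 11, 102887336 to 102900912). A match is a description of these letters and was not tested for binding, and sequence outside these windows was not searched.

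The genes are protein-coding and were counted over their exons, on GRCm38 as annotated by GENCODE M21. Gfap (ENSMUSG00000020932.14) lies on the minus strand of chromosome 11 as given above, and Vim (ENSMUSG00000026728.9) on the plus strand of chromosome 2, 13573927 to 13582826. S100b (ENSMUSG00000033208.7; 76253853 to 76261159) and Fabp7 (ENSMUSG00000019874.11; 57784881 to 57788450) are both on the plus strand of chromosome 10. Of the transporter genes, Slc1a3 (ENSMUSG00000005360.14) spans 8634124 to 8710764 on the minus strand of chromosome 15 and Slc1a2 (ENSMUSG00000005089.15) spans 102658659 to 102790784 on the plus strand of chromosome 2. Gdf10 (ENSMUSG00000021943.7) is on chromosome 14, 33923587 to 33937983, Hopx (ENSMUSG00000059325.14) on chromosome 5, 77086988 to 77115121, and Aldh1l1 (ENSMUSG00000030088.15) on chromosome 6, 90486427 to 90600203. Aqp4 (ENSMUSG00000024411.9) is on chromosome 18.

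The 10 genes were well expressed. On a scale corrected for exon length as well as depth (FPKM), S100b, which encodes a calcium-binding protein of astrocytes and of some oligodendrocytes, had the highest level in batch 1 WT mice, 289 ± 4.51 FPKM (SD, n = 4). The glutamate transporter gene Slc1a3 (GLAST), the main transporter of Bergmann glia, followed with 168 ± 12.5 FPKM. The next genes lay close together, with 65.4 ± 0.510 FPKM for the water channel gene Aqp4, 52.4 ± 3.04 for Hopx and 51.7 ± 0.962 for Slc1a2 (GLT-1). Fabp7, Gdf10, Gfap and Vim had 45.8 ± 11.1, 43.6 ± 5.03, 41.5 ± 0.725 and 41.3 ± 4.27 FPKM and did not differ beyond their spread. The folate enzyme gene Aldh1l1 was lowest with 14.7 ± 0.997 FPKM, still above 84.3% of the genes tested. Counts of Hopx and Aldh1l1 are partial, because 54.1% and 15.4% of the fragments on them lay where they overlap other genes, including an antisense gene in each case, and were left uncounted. The libraries do not mark strand, so these fragments cannot be divided between the partners.

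Gfap, which encodes the intermediate filament that defines reactive astrocytes, showed no increase past the test in any genotype. Its levels were 172.8, 173.4, 179.5 and 174.6 CPM in the 4 WT mice of batch 1 and 167.0, 208.1, 194.9 and 157.3 CPM in the SCA1 mice. The SCA1 mice lay on both sides of the WT mice, and the difference was 0.05 on the log2 scale (standard error 0.10, 95% confidence interval -0.16 to 0.27, adjusted p = 0.921 by the quasi-likelihood test of edgeR, corrected over all genes by Benjamini-Hochberg). This difference was 0.11 without SCA1 replicate 4, the lowest of that group, and -0.03 without SCA1 replicate 2, the highest. The SCA1 S776A mice had 165.3, 182.5, 172.7 and 238.5 CPM. The fourth of these mice was the highest of batch 1, and the difference of this group from WT (log2 0.12, interval -0.09 to 0.33, adjusted p = 0.9998) was -0.01 without it. In S776A double mice Gfap was at 187.5, 169.4, 181.9 and 161.9 CPM, again overlapping WT (log2 0.00, interval -0.21 to 0.21). When the 12 mice with the expanded repeat were set together against the 4 WT mice of their batch, the difference was 0.06 (interval -0.11 to 0.23), which corresponds to a fold of 0.923 to 1.17. The WT mice of batch 1 were close together, with a coefficient of variation of 1.75%, against 5.46% in the WT mice of batch 2 and 6.66% to 17.5% in the other groups.

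**Figure D1:**
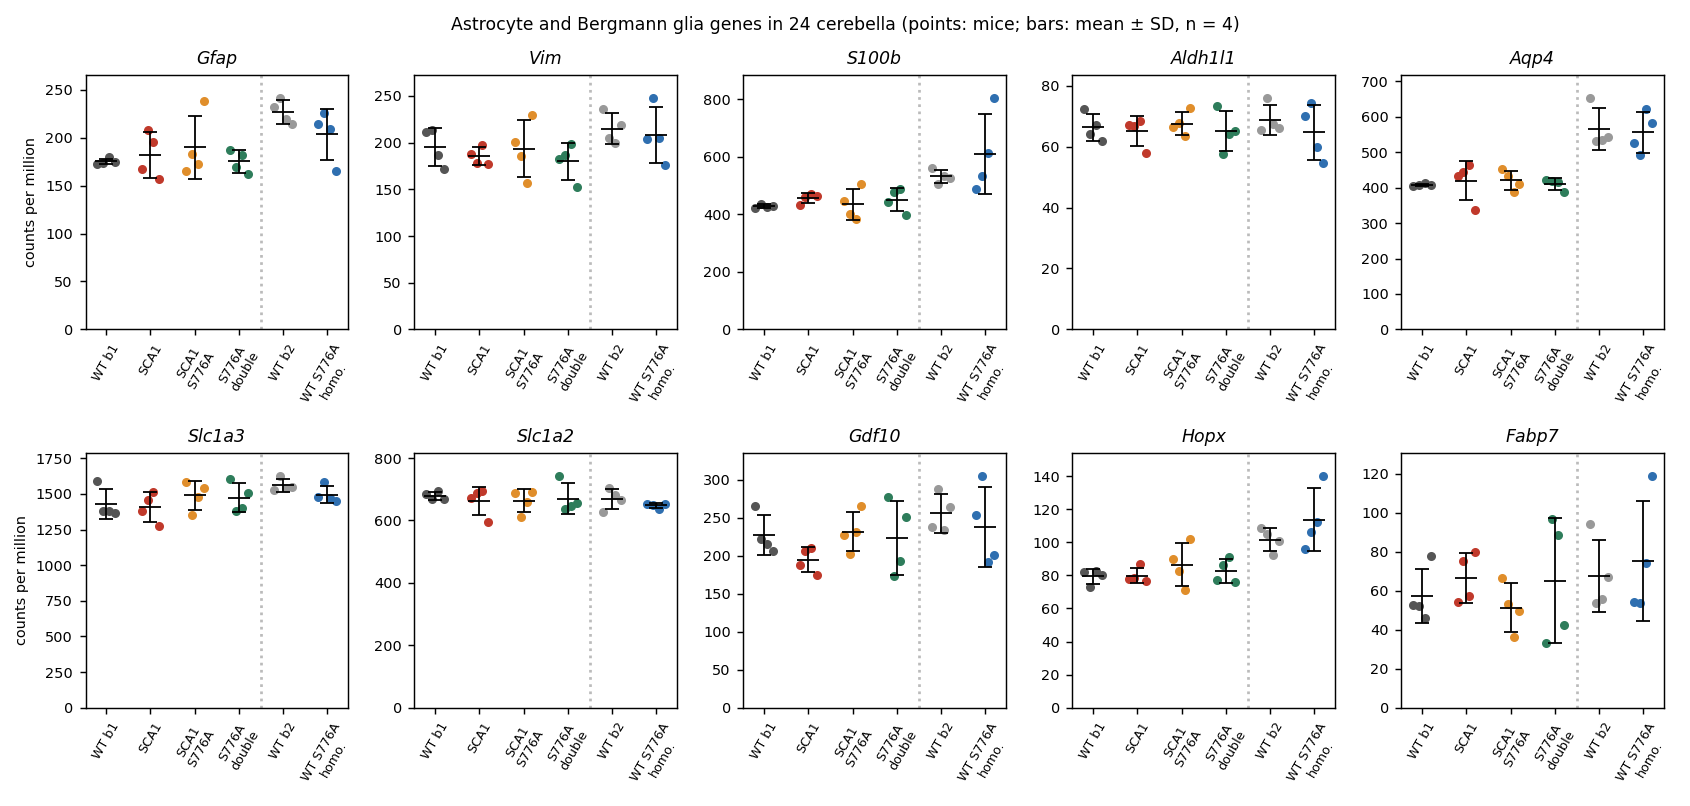
CPM (vertical axis, from 0) of each of the 10 genes in every mouse, by genotype and batch, with the mean and SD of 4 mice; the dotted line separates batch 1 (left) from batch 2 (right). In batch 1 the mice of all 4 genotypes overlap for every gene, and the WT mice of batch 2 lie above those of batch 1 for Gfap, S100b, Aqp4 and Hopx.

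The other genes of the astrocyte skeleton and cytoplasm showed the same overlap. Vim, which encodes vimentin and is also expressed in vessels and meninges, had 211.4, 213.6, 186.5 and 171.6 CPM in WT and 188.1, 178.5, 197.7 and 177.1 CPM in SCA1 mice. All SCA1 values lay within the range of the WT mice (log2 -0.08, interval -0.30 to 0.14), and the intervals in SCA1 S776A (-0.24 to 0.20) and S776A double mice (-0.34 to 0.10) also held 0. S100b was at 421.4, 437.1, 426.1 and 430.5 CPM in WT and 432.3, 460.3, 470.6 and 465.6 CPM in SCA1 mice. Of the SCA1 mice, 3 of 4 were above every WT mouse, but the difference of 0.09 (interval -0.12 to 0.31) had an adjusted p of 0.867 in edgeR's test. Aldh1l1, a general marker of astrocytes, had 66.4 ± 4.50 CPM in WT, 65.1 ± 4.79 in SCA1, 67.6 ± 3.83 in SCA1 S776A and 65.1 ± 6.42 in S776A double mice (SD, n = 4), with log2 differences from WT between -0.03 and 0.03.

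The genes through which astrocytes clear glutamate and water overlapped between genotypes too, and Slc1a2 and Slc1a3 had the smallest standard errors of the 10 genes. Slc1a3 was at 1591.1, 1382.1, 1380.4 and 1369.6 CPM in WT and at 1381.1, 1461.0, 1514.1 and 1275.0 CPM in SCA1 mice. One WT mouse and 1 SCA1 mouse marked the upper and lower ends, and the log2 difference was -0.02 (interval -0.16 to 0.12), a fold between 0.892 and 1.09. In SCA1 S776A and S776A double mice the intervals for Slc1a3 were -0.08 to 0.20 and -0.10 to 0.18. Slc1a2, the main glutamate transporter gene of forebrain astrocytes, had 678 ± 12.6 CPM in WT beside 662 ± 45.5 in SCA1, 663 ± 37.4 in SCA1 S776A and 670 ± 49.0 in S776A double mice (SD, n = 4), and its interval in SCA1 mice was -0.16 to 0.09. Aqp4, the water channel of astrocyte endfeet, was at 408 ± 3.18 CPM in WT and 420 ± 56.1 in SCA1 mice (SD, n = 4), where replicate 4 was lowest with 338.0 CPM and the other 3 mice had 432.6 to 464.3 CPM. The log2 differences of Aqp4 from WT were 0.04, 0.04 and 0.01 in the 3 genotypes. In SCA1 mice the value was 0.12 without replicate 4 and -0.01 without replicate 3.

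Of the genes that mark Bergmann glia in particular, Gdf10 had the lowest log2 difference from WT in SCA1 mice. Gdf10 encodes a secreted protein of the TGF-β family and is expressed in the cerebellum by Bergmann glia. It was at 265.4, 221.9, 215.6 and 206.3 CPM in WT and at 187.6, 206.7, 210.6 and 175.1 CPM in SCA1 mice. The groups overlapped by a narrow margin, and the difference of -0.22 (standard error 0.14, interval -0.52 to 0.07, adjusted p = 0.746) did not pass the test; it was -0.14 without WT replicate 1. SCA1 S776A and S776A double mice had 232 ± 25.9 and 224 ± 48.7 CPM (SD, n = 4), with differences from WT of 0.03 and -0.02. Beside these values, the summed level of 8 Purkinje cell markers was 8399 to 9741 CPM in the WT mice of batch 1 and 6297 to 7102 CPM in SCA1 mice; the part of the Purkinje cell genes in the value of Gdf10 was not tested.

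Hopx, which encodes a small homeodomain protein of Bergmann glia and other radial glia, had 81.9, 72.7, 82.9 and 80.3 CPM in WT and 77.7, 78.3, 86.7 and 76.9 CPM in SCA1 mice (log2 0.01, interval -0.20 to 0.21). It overlapped WT in SCA1 S776A (log2 0.12) and S776A double mice (0.06) as well; the former value was 0.03 without SCA1 S776A replicate 4 and 0.20 without replicate 3. Fabp7, the brain lipid-binding protein gene of radial glia and immature astrocytes, was by far the most variable. Its coefficient of variation within groups was 19.3% to 49.1%, against 0.779% to 22.9% for the other genes. In S776A double mice Fabp7 was at 33.2, 96.8, 88.3 and 42.4 CPM, and the same mice had 277.1, 173.0, 193.4 and 251.3 CPM of Gdf10. The mice with low Fabp7 were therefore those with high Gdf10. The interval of the Fabp7 difference in SCA1 mice, -0.47 to 0.91, leaves changes of a fold between 0.721 and 1.88 undetected.

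**Figure D2:**
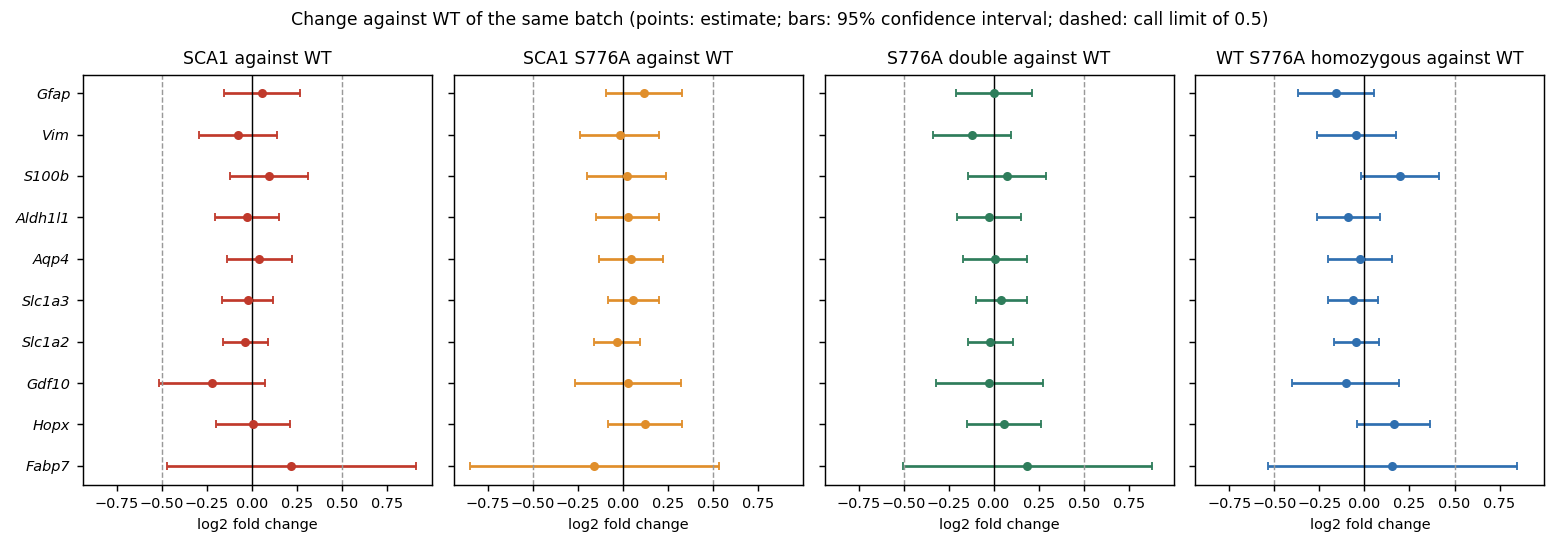
Log2 fold change (horizontal axis) of the 10 genes in each genotype against the WT mice of the same batch, with 95% confidence intervals; the dashed lines mark the limit of 0.5 used to call a gene. All 40 intervals hold 0, and 35 of them lie between the dashed lines; of the other 5, 4 belong to Fabp7 and 1 to Gdf10 in SCA1 mice.

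A gene was called differentially expressed where its adjusted p was under 0.01 and its log2 fold change beyond 0.5 in either direction. In SCA1 mice 0 of the 10 genes were called, 0 had an unadjusted p under 0.05 and 0 had groups that did not overlap; over all 22502 genes these shares were 0.173%, 8.25% and 8.76%. The counts of the 10 genes were also 0 for all 3 measures in SCA1 S776A mice, where 0.0133% of all genes were called, 3.93% had an unadjusted p under 0.05 and 4.39% did not overlap. They were 0 in S776A double mice too, beside 0.0267%, 6.93% and 7.11% of all genes. With the 3 genotypes pooled, 0 of 10 were called and 0 reached an unadjusted p under 0.05, against 0.0978% and 7.67% of all genes. With so few genes called at all, and 10 genes in the list, a count of 0 called is what the share over all genes would give, and the intervals carry more of the information. DESeq2 with batch as a covariate also called 0 of the 10 genes and gave 0 with an unadjusted p under 0.05 in each of these comparisons. The median difference of the 10 genes from WT was -0.01 in SCA1, 0.03 in SCA1 S776A and 0.00 in S776A double mice, beside medians of 0.00, 0.00 and -0.00 over all genes tested. The signs were divided, with 5 genes above and 5 below WT in SCA1 mice, 7 and 3 in SCA1 S776A mice, and 6 and 4 in S776A double mice. These 3 comparisons share the same 4 WT mice.

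The WT S776A homozygous mice, which ask whether the edit alters these genes without the expansion, were set against the batch 2 WT mice. Again 0 of the 10 genes were called and 0 had an unadjusted p under 0.05 or groups that did not overlap, beside 0%, 9.98% and 2.65% of all genes. Gfap was at 232.1, 241.6, 218.9 and 214.5 CPM in these WT mice and at 213.8, 226.1, 209.4 and 165.0 CPM in the homozygous mice (log2 -0.16, interval -0.37 to 0.05, adjusted p = 0.562). Replicate 4 was the lowest, and without it the difference was -0.07. S100b moved the other way, with 562.1, 506.4, 534.6 and 525.3 CPM in WT and 489.5, 535.0, 612.1 and 805.8 CPM in homozygous mice (log2 0.20, interval -0.02 to 0.42, adjusted p = 0.511). This value rested on replicate 4 as well, since without it the difference was 0.03. Replicate 4 also had the highest Hopx and Fabp7 of all 24 mice (140.1 and 118.8 CPM) and the lowest Aldh1l1 (54.7 CPM), and it was the library with 5.29% of fragments on mitochondrial genes. The part of that library's composition in these values was not tested. The intervals of Slc1a3 (-0.20 to 0.08) and Slc1a2 (-0.17 to 0.08) were the narrowest.

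The genotypes with the expanded repeat were also compared directly. In SCA1 S776A against SCA1, S776A double against SCA1 and S776A double against SCA1 S776A mice, 0 of the 10 genes were called. Over all genes, the called shares in these 3 comparisons were 0.00444%, 0% and 0%. None of the 30 values had an unadjusted p under 0.05, beside 4.35%, 3.64% and 2.96% of all genes. A count of 0 is close to what these shares would give. Gdf10 was higher by 0.25 in SCA1 S776A than in SCA1 mice (interval -0.05 to 0.54, adjusted p = 0.9998) and by 0.20 in S776A double mice (interval -0.10 to 0.49), where it was 0.08 without S776A double replicate 1 and 0.31 without replicate 2. The corresponding differences of Gfap were 0.06 (interval -0.15 to 0.27) and -0.05 (interval -0.26 to 0.16). The effect of each genotype with the repeat was set against the effect of the homozygous edit in 30 interaction tests. None of them had an unadjusted p under 0.05, and the share of all genes under it in these tests was not counted. The lowest p was that of Gfap in SCA1 S776A mice, with a difference in log2 fold change of 0.27 (interval -0.03 to 0.57, adjusted p = 0.917). It was 0.15 without SCA1 S776A replicate 4 and 0.19 without WT S776A homozygous replicate 4.

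The largest difference in these genes lay between WT mice of the 2 batches. Aqp4 was higher in batch 2 by 0.47 on the log2 scale (565 against 408 CPM, adjusted p = 1.03e-04), Gfap by 0.37 (227 against 175 CPM, adjusted p = 0.00451), Hopx by 0.35 (adjusted p = 0.00524) and S100b by 0.31 (adjusted p = 0.0186) by the same edgeR test. All 4 WT mice of batch 2 were above all 4 WT mice of batch 1 for each of these genes. The share of all genes that differed between these WT mice was not counted. The differences are therefore not shown to be particular to astrocyte genes. The remaining genes differed by -0.02 (Slc1a2) to 0.24 (Fabp7), with adjusted p of 0.139 or more. The labels give no difference between these WT mice, but their libraries differed further. Xist was above 50 CPM in 2 of the 4 of batch 2 and 0 of the 4 of batch 1. With Xist-based sex as a covariate, an alternative added once the data had been seen, the differences were 0.45 for Aqp4 (adjusted p = 0.000477), 0.39 for Gfap (0.00811) and 0.33 for Hopx (0.0173), while that of S100b was 0.24 (0.0774). The summed markers of oligodendrocytes (6749 to 8009 CPM in batch 1 and 9284 to 10144 in batch 2), microglia (104 to 107 and 118 to 128) and granule cells (5014 to 5192 and 5907 to 6322) did not overlap between these WT mice either, and their part in the difference was not tested. The comparison that uses all 8 WT mice without regard to batch turned the Gfap value of SCA1 mice from 0.05 to -0.14, that of Aqp4 from 0.04 to -0.21, that of Hopx from 0.01 to -0.18 and that of S100b from 0.09 to -0.07. None of these values passed the test in SCA1 mice either way.

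**Figure D3:**
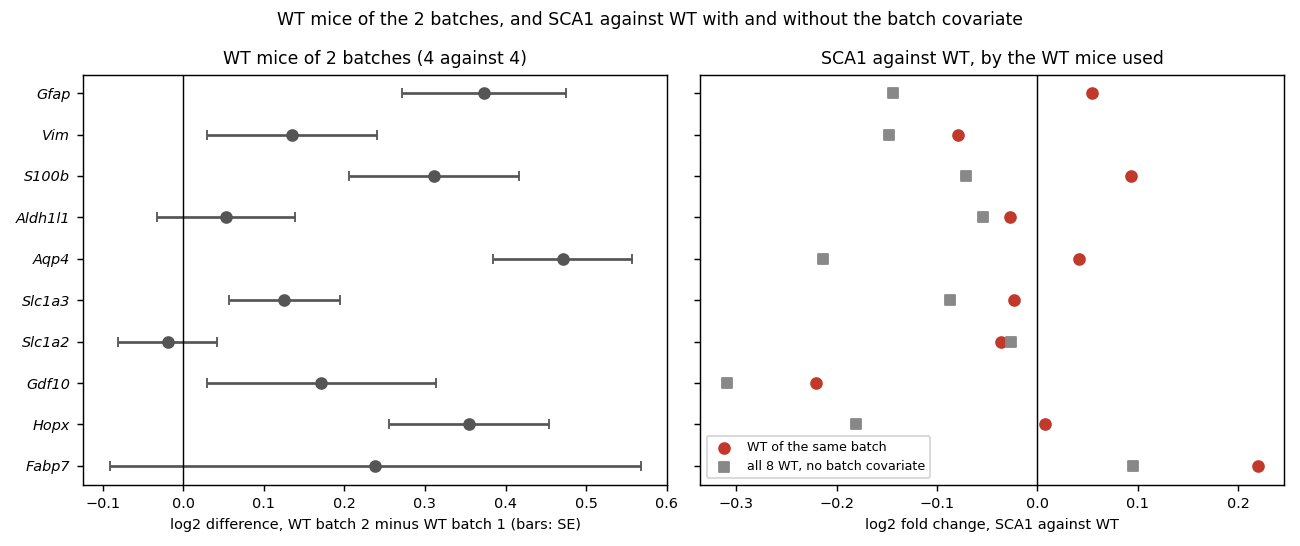
Left, log2 difference of WT mice of batch 2 from WT mice of batch 1 (4 against 4) with its standard error; right, log2 fold change of SCA1 mice against the WT mice of the same batch (circles) and against all 8 WT mice without a batch covariate (squares). Gfap, S100b, Aqp4 and Hopx are higher in batch 2, and their circles and squares lie on opposite sides of 0.

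Further lists of glial and other genes were examined in the same fit, and 0 genes of any list were called in the 4 comparisons with WT. Of 44 other genes of astrocytes and Bergmann glia, 0 were higher and 2 lower in SCA1 mice at an unadjusted p under 0.05, beside 3.93% higher and 4.32% lower over all genes, so that the share that was lower was close to the background, and the median difference was -0.02. The genes with the lowest p in that list were Gli1, Grm3 and Ptprz1. Gli1, the transcription factor and target of Sonic hedgehog, which Purkinje cells release and Bergmann glia receive, was at 18.97, 19.16, 17.29 and 17.52 CPM in WT and at 13.97, 15.23, 15.95 and 15.74 CPM in SCA1 mice. The SCA1 mice were all below the WT mice (log2 -0.26, interval -0.47 to -0.05), but the adjusted p was 0.458. The values of Gli1 in SCA1 S776A (13.39 to 16.26 CPM) and S776A double mice (14.71 to 16.22 CPM) were below the same 4 WT mice as well, and the pooled difference was -0.25 (interval -0.42 to -0.08, adjusted p = 0.365). Over all genes, 4.99% lay wholly below WT in SCA1 mice and 0.72% in the pooled comparison. Gli1 was named for its low p among the 44 genes, and these comparisons share the same 4 WT mice. In the WT mice of batch 2 Gli1 was lower still, at 11.03 to 13.38 CPM. Grm3, a glutamate receptor gene of astrocytes, and Ptprz1, a receptor phosphatase of radial glia, had differences of -0.20 (adjusted p = 0.565) and -0.16 (adjusted p = 0.716) in SCA1 mice.

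Genes known to be induced in reactive astrocytes were examined next. The 11 genes common to many forms of reactivity summed to 45.1 to 49.99 CPM in the WT mice of batch 1, 45.8 to 56.8 in SCA1, 44.0 to 55.3 in SCA1 S776A and 42.6 to 53.2 in S776A double mice, so the ranges overlapped. In SCA1 mice 1 of the 11 was higher at an unadjusted p under 0.05, beside the 3.93% of all genes. This gene was Steap4, a metalloreductase, at 0.34, 0.35, 0.75 and 0.55 CPM in WT and 0.67, 0.92, 0.40 and 1.93 CPM in SCA1 mice (log2 0.98, interval 0.15 to 1.81, adjusted p = 0.486), with overlapping groups. Replicate 4 of the SCA1 mice was far above the others, and without it the difference was 0.41 (adjusted p = 0.945). Serpina3n, a secreted protease inhibitor and one of the most used markers of reactive astrocytes, was at 1.81 to 2.16 CPM in WT and 1.86 to 2.62 CPM in SCA1 mice (log2 0.23, interval -0.02 to 0.49, adjusted p = 0.653). The adhesion receptor gene Cd44 had a difference of 0.11 (adjusted p = 0.876). Of 13 genes linked to the inflammatory (A1) form of reactivity, 12 were tested, with a sum of 214 to 236 CPM in the batch 1 WT mice and 201 to 226 CPM in SCA1 mice, and had a median difference of 0.07 in SCA1 mice, with Fbln5 (0.26, adjusted p = 0.581), H2-D1 (-0.14) and Psmb8 (0.35) at the lowest p. Of 13 linked to the ischemic (A2) form, 12 were tested, with a sum of 123 to 131 CPM in WT and 117 to 129 CPM in SCA1 mice, a median of 0.08 and Sphk1 (-0.26, adjusted p = 0.634), B3gnt5 (-0.11) and Clcf1 (-0.14) at the lowest p. The untested genes were Ugt1a1, with 0 counts in all libraries, and Slc10a6, with at most 10. Psmb8 was low, with means of 0.51 CPM in the batch 1 WT mice and 0.65 CPM in SCA1 mice.

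JAK-STAT3 signaling, a known route from cytokine to Gfap, was likewise without a called gene. Of 11 genes of JAK-STAT3 signaling, Il6 was not tested because no library had more than 5 counts, and the other 10 had a median difference of 0.01 in SCA1 mice, 5 above and 5 below WT. Stat3 itself was at 46.68, 47.82, 47.04 and 49.81 CPM in WT and 47.67, 52.06, 46.87 and 43.10 CPM in SCA1 mice (log2 -0.01, interval -0.18 to 0.16). The lowest p were those of Il6st, which encodes the shared receptor subunit gp130 (-0.15, adjusted p = 0.644), the ligand gene Cntf (-0.47, adjusted p = 0.715) and the feedback inhibitor gene Socs3 (0.28, adjusted p = 0.719). Cntf was very low, with means of 0.28 CPM in the batch 1 WT mice and 0.20 CPM in SCA1 mice. In WT S776A homozygous mice Stat3 had a difference of -0.19 at an adjusted p of 0.485. Its lowest level was in replicate 4 (36.39 CPM, the other 3 at 44.76 to 53.22), and without that mouse the difference was -0.09.

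**Figure D4:**
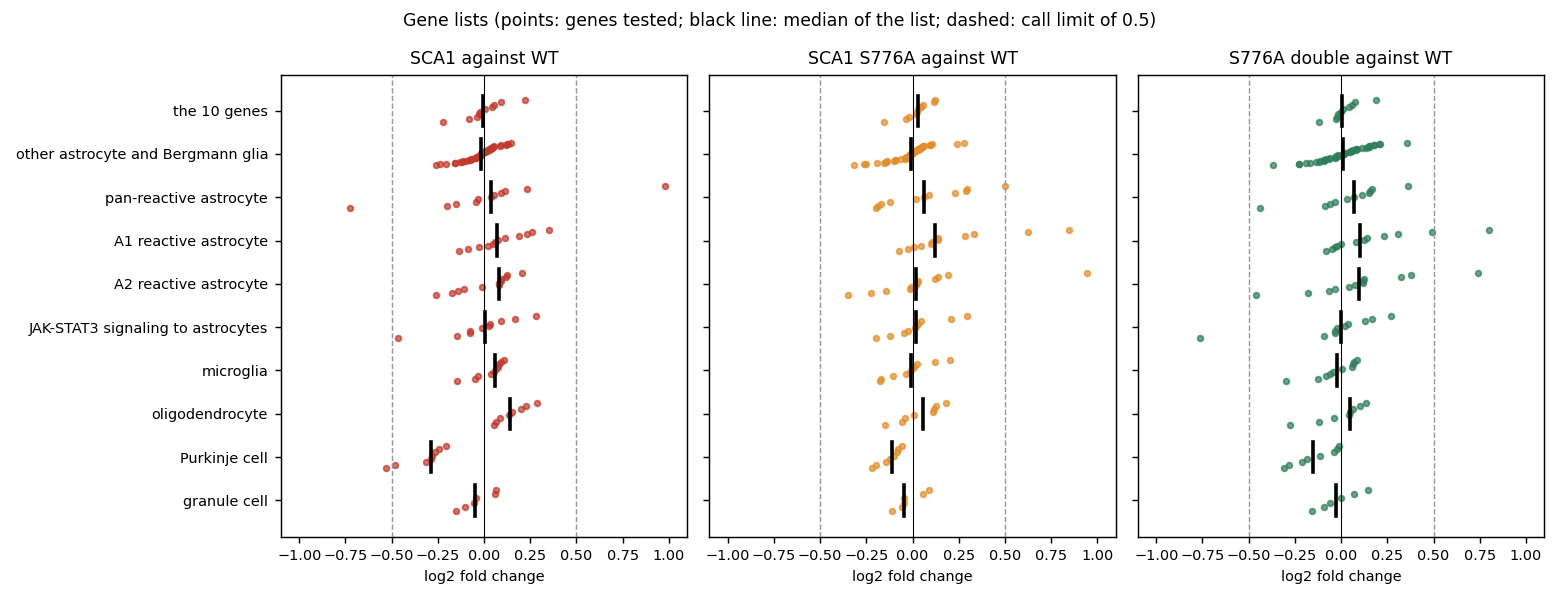
Log2 fold change (horizontal axis) of the tested genes of 10 lists in the 3 genotypes with the expanded repeat against WT; each point is a gene and the black line is the median of its list. The medians of the astrocyte, reactive and JAK-STAT3 lists lie between -0.02 and 0.12, and all 8 Purkinje cell genes are on the negative side in each panel.

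The neuronal and other glial markers give the setting of these values. All 8 Purkinje cell markers were below WT in SCA1 mice, with a median of -0.29, and 7 of the 8 had an unadjusted p under 0.05 and groups that did not overlap, beside 8.25% and 8.76% of all genes. Rgs8, a regulator of G-protein signaling of Purkinje cells, was at 902.55 to 1084.45 CPM in SCA1 and 1306.74 to 1587.74 CPM in WT mice (log2 -0.53, adjusted p = 0.0152), followed by Car8 (-0.29). The Purkinje cell list was assembled with results of these mice known and is not independent evidence of its direction. All 8 oligodendrocyte genes lay above WT in SCA1 mice, with a median of 0.14 and 2 of 8 (Mbp at 0.23 and Mobp at 0.29) at an unadjusted p under 0.05. The 10 microglia genes had a median of 0.06, with 0 of 10 at an unadjusted p under 0.05 and C1qa, Tmem119 and C1qb (0.09, 0.11 and 0.08) at the lowest p. Of 4 oligodendrocyte precursor genes, Olig2 (0.21) reached that level, beside Cspg4 (-0.09) and Pdgfra (0.03). The 6 granule cell genes had a median of -0.05, with Cbln3, Neurod1 and Slc17a7 at -0.15, -0.06 and -0.10. Genes of choroid plexus, ependyma, and vessels and meninges had medians of 1.19, 0.04 and -0.02; the choroid plexus sum ranged from 35.7 to 1784 CPM in WT and from 923.5 to 5225 CPM in SCA1 mice, and Otx2, Kcnj13 and Clic6 (0.58, 1.19 and 0.87) had the lowest p of that list. Foxj1, Dynlrb2 and Rarres2 of the ependyma had differences of 0.34, 0.75 and 0.04. Dynlrb2 was low, with means of 0.69 CPM in the batch 1 WT mice and 1.15 CPM in SCA1 mice. Lum, Col1a1 and Col1a2 of the meninges had differences of 0.36, -0.36 and -0.21. None of these passed the call, and the part of other cell types in the values of the 10 astrocyte genes was not tested.

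Between mice of one group, the 10 genes did not vary as a single unit. Deviations from the mean of each group were correlated over all 24 mice for the 45 pairs of genes, with two-sided permutation p from shuffling mice within groups and Benjamini-Hochberg adjustment over the 45 pairs. Of these, 32 were positive, the median r was 0.16 and 12 had an adjusted p under 0.05. Pairs of other genes were not counted in this way. The correlations are therefore not shown to be particular to these 10 genes. A first set held Slc1a3, Slc1a2, Gdf10 and Aldh1l1. The r of Slc1a2 with the others was lower in batch 2 (8 mice) than in batch 1 (16 mice). It was 0.50 against 0.82 with Slc1a3, 0.36 against 0.73 with Gdf10 and 0.39 against 0.75 with Aldh1l1. Slc1a3 and Gdf10 had r = 0.79 and rho = 0.83 (permutation p = 1e-05 for each, the smallest that these permutations can give; adjusted p = 0.00045; r = 0.74 without the 2 mice farthest from the median; r = 0.85 in batch 1 and 0.86 in batch 2). Aldh1l1 and Gdf10 had r = 0.85 and rho = 0.83 (permutation p = 4e-05 and 8e-05, adjusted p = 0.0009 and 0.0018; r = 0.82 without the 2 farthest mice; 0.82 and 0.90 within batches). A second set held S100b, Hopx and Fabp7. S100b and Hopx had r = 0.85 and rho = 0.74 (permutation p = 0.00015 and 0.00176, adjusted p = 0.00135 and 0.0088; r = 0.76 without the 2 farthest mice; 0.83 and 0.91 within batches). Of the second set, Fabp7 ran against genes of the first, since Gdf10 and Fabp7 had r = -0.71 and rho = -0.70 (permutation p = 0.00958 and 0.00845, adjusted p = 0.0359 and 0.0329; r = -0.62 without the 2 farthest mice; -0.72 and -0.68 within batches). Gfap deviated with Aldh1l1, with r = 0.67 and rho = 0.63 (permutation p = 0.00043 and 0.00079, adjusted p = 0.00276 and 0.00656; r = 0.59 without the 2 farthest mice; 0.57 and 0.84 within batches).

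**Figure D5:**
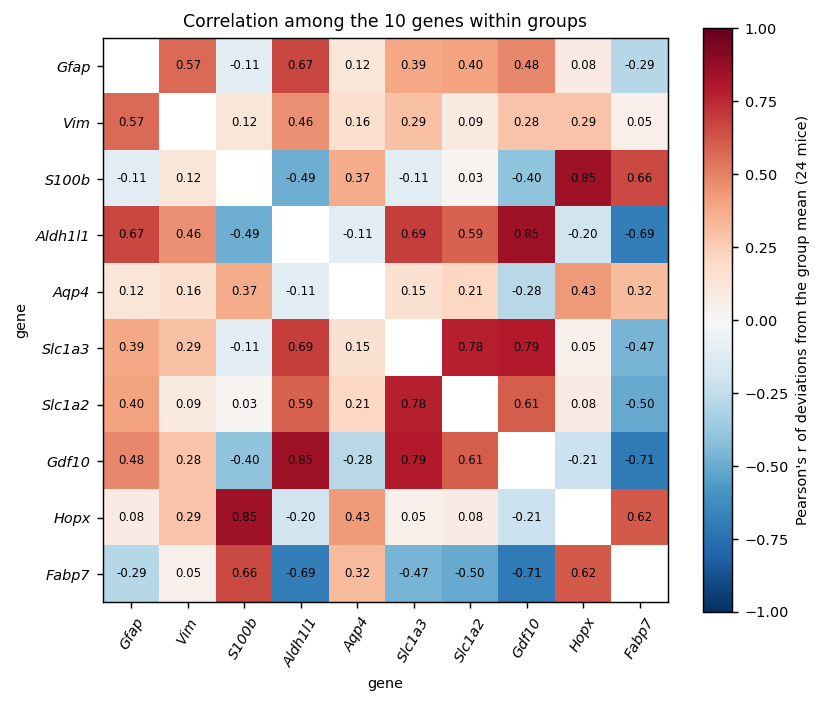
Pearson's r between the deviations of each pair of genes from the mean of their group, over 24 mice (red, positive; blue, negative). Slc1a3, Slc1a2, Gdf10 and Aldh1l1 form one block of positive values and S100b, Hopx and Fabp7 another, with negative values between Fabp7 and the first block.

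The same deviations were set against 11 measures of each library, 110 relations in all, of which 6 had an adjusted p under 0.05 by Pearson's r. Of the first set, Slc1a3 and Gdf10 followed the Purkinje cell markers, with r = 0.78 and rho = 0.77 for Slc1a3 (permutation p = 0.00015 and 0.00036, adjusted p = 0.00733 and 0.0154; r = 0.76 without the 2 farthest mice; 0.90 in batch 1 and 0.31 in batch 2). For Gdf10 the values were r = 0.75 and rho = 0.77 (permutation p = 0.00096 and 0.00042, adjusted p = 0.0176 and 0.0154; r = 0.67 without the 2 farthest mice), again larger in batch 1 (0.92) than in batch 2 (0.44). S100b followed the mitochondrial share of the library with r = 0.89 and rho = 0.71 (permutation p = 0.00018 and 0.00058, adjusted p = 0.00733 and 0.0159; r = 0.71 without the 2 farthest mice; 0.68 and 0.98 within batches). Aqp4 followed the microglia markers, with r = 0.74 and rho = 0.74 (permutation p = 0.00047 and 0.0004, adjusted p = 0.0129 and 0.0154; r = 0.65 without the 2 farthest mice; 0.79 and 0.68 within batches). Vim followed the markers of vessels and meninges, with r = 0.71 and rho = 0.68 (permutation p = 0.00089 and 0.00094, adjusted p = 0.0176 and 0.0207; r = 0.60 without the 2 farthest mice; 0.66 and 0.83 within batches). S100b also followed the share of multimapping fragments (r = 0.86, rho = 0.66, permutation p = 0.0002 and 0.0022, adjusted p = 0.00733 and 0.0403; r = 0.62 without the 2 farthest mice; 0.62 and 0.98 within batches). Both shares were highest in WT S776A homozygous replicate 4 (5.79% multimapping and 5.29% mitochondrial), so these 2 relations of S100b are not independent. Such relations were not counted over all genes.

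Among all 22502 genes, those whose deviations were most like those of Gfap over the 24 mice were Rasgrf1 (r = 0.82), Slc25a25 (0.79), Wnt7b (0.79), Kank4 (0.78) and Pygb (0.78). Those most like Slc1a3 were Gria1 (0.86), Dirc2 (0.85), Gpr37l1 (0.85), Masp1 (0.85) and Zdhhc3 (0.83). These are the highest of many values from the same libraries and are given as a description.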

How the data were processed

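Total RNA of whole cerebella was sequenced as 150-base read pairs, per the methods of the study. Per the submitters' processing notes, reads were trimmed by Trimmomatic 0.36 and mapped by STAR 2.7.2d to build GRCm38.p6, and the authors deposited STAR's whole-number counts of fragments per gene, without normalization and before their batch correction. The annotation release is not given in the sources used here; 54165 of 54232 gene identifiers matched GENCODE M21 without their version suffix, and positions, exon lengths and overlaps come from it. The unstranded column was used, since the totals of the strands had a ratio of 0.9995 to 1.0035 in every library. Replicates are separate mice per the labels, and pairs of mice of one group differed by a chi-square of 8.67 to 219 per degree of freedom, so no library was a copy of another.

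Batches were inferred by k-means (k of 2, 50 starts) on the shares of unmapped, multimapping, no-feature and ambiguous fragments (mean silhouette 0.634). Counts were scaled by TMM (factors 0.944 to 1.056) and 22502 genes kept by filterByExpr were tested in R 4.3.3 with the robust quasi-likelihood test of edgeR 4.0.16, in 1 fit of all 24 mice with genotype and batch. Standard errors and 95% intervals are Wald values of that fit. CPM are TMM-scaled and correlations use log2 CPM with a prior count of 2 and 100000 permutations. The procedure was tested on simulated data. Alternatives were no batch covariate, DESeq2 1.42.0 with batch, ComBat-seq (sva 3.50.0) and then DESeq2, other scalings, filters and thresholds, Xist-based sex as a covariate (5 libraries above 50 CPM), only the mice of 1 batch, each mouse left out and, chosen after seeing the data, the sum of the stranded counts, sex as a covariate of the difference between the WT mice of both batches, and single mice left out for Steap4, Stat3 and the Gfap interaction.

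The 10 genes and the further lists were chosen with earlier results of these data known. Named beside them are the up to 3 genes of each list with the lowest unadjusted p in SCA1 mice and the 5 genes most like Gfap and Slc1a3; Stat3 was named after its values were seen, and 2 genes that this rule names are not reported here. A single row of the counts, not a mouse gene, was left out, and the behavioral and protein measurements of the study were not analysed here.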

Additional observations from a re-analysis of the deposited data

Results flagged for a closer look

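Each of the 10 genes was examined in each of the 6 groups of 4 mice for a mouse far from the others by Dixon's ratio (its gap to the nearest mouse over the range of the group, on log2 CPM). Of 60 groups, 5 held such a mouse, where chance gives about 1 in 20, or 3. Aqp4 was at 654 CPM in WT replicate 5 of batch 2, above the other WT mice of that batch (531 to 542 CPM), and at 387 CPM in S776A double replicate 4, below the others (415 to 421 CPM). Slc1a3 was at 1591 CPM in WT replicate 1 of batch 1, above the others (1370 to 1382 CPM). Aldh1l1 was at 58.0 CPM in SCA1 replicate 4, below the others (66.9 to 68.6 CPM), and Hopx at 86.7 CPM in SCA1 replicate 3, above the others (76.9 to 78.3 CPM). No mouse was left out of the reported values for this reason, and leaving out each in turn gave 0 calls among the 10 genes.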

How the results depend on the processing

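Under 10 other settings and with each of the 24 mice left out in turn, 0 of the 10 genes were called in each of the 8 comparisons. Without a batch covariate 19 of 80 log2 differences changed sign by more than their standard error: in SCA1 mice Gfap -0.14, Hopx -0.18, Aqp4 -0.21 and S100b -0.0715; in SCA1 S776A mice Gfap -0.0825, Hopx -0.067, Aqp4 -0.21 and S100b -0.14; in S776A double mice Gfap -0.20, Hopx -0.13, Aqp4 -0.25 and S100b -0.0898; in WT S776A homozygous mice Gfap 0.0187 and Aqp4 0.19; and pooled Gfap -0.14, Slc1a3 -0.0382, Hopx -0.13, Aqp4 -0.22 and S100b -0.10. That setting takes WT mice of both batches as 1 group, and these WT mice differed in Gfap, Hopx, Aqp4 and S100b. For Slc1a3 the difference between the WT mice was 0.13 (adjusted p = 0.14 by edgeR's test). The other 9 settings changed no sign by more than the standard error. Of 1920 values with 1 mouse left out, 3 changed sign by more than the standard error. With 1 mouse left out, Gfap ranged from -0.0132 to 0.18 in SCA1 S776A against WT, from -0.0609 to 0.14 against SCA1 and from -0.18 to 0.0112 in S776A double against SCA1 S776A mice. In each range, the end past the sign change was without SCA1 S776A replicate 4. Of the 80 differences, 44 had leave-one-out ranges that held 0. The lowest adjusted p over the leave-one-out fits was 0.167, for S100b in WT S776A homozygous mice. Without a batch covariate, S100b (0.35, adjusted p = 0.035) and Hopx (0.33, adjusted p = 0.0382) in these mice were under 0.05. Counts of all called genes moved more: 33 higher and 84 lower in SCA1 mice after ComBat-seq and DESeq2, 13 and 53 with DESeq2 and batch, and 12 and 53 with batch 1 alone, against 8 and 31. No paired analysis was possible because replicate numbers only follow the order of listing, and the labels number the animals individually, with no number tied to a litter, batch or day shared by groups. With 4 mice a group, changes smaller than the intervals were not detectable. For the 10 genes, counting error is a small part of these intervals at this depth.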
